A study of Mus musculus with 4 samples.

Results

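Microglia are the resident phagocytes of the brain, and macrophages and monocytes can join them in a tumor. The 10 genes described here, Csf1r, Aif1, Trem2, Tyrobp, Ptprc, Lyz2, Ly86, Cx3cr1, C1qa and C1qb, are markers of these cells. They were chosen by name, with earlier results of these data known. Every probe set that the platform annotation gives to 1 of them alone was read. That gave 15 of the 29304 probe sets and 10 of the 13320 genes with such a probe set in the table used here.

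The samples were 4 mouse cerebellar tumors, labelled Chd7-het with the numbers 1, 2, 4 and 5, from mice of mixed CD1xC57BL/6 background. Chd7 encodes a chromatin remodeller, and the labels name neither a further allele nor the age or sex of the mice. Total RNA of each tumor was read on 1 Affymetrix Mouse Genome 430 2.0 array, so every tumor is a single measurement and precision is limited by their number. The RNA came from frozen tissue that was milled and extracted with TRIzol and a spin column. All 4 tumors formed 1 group, with neither normal cerebellum nor another genotype beside them, so the comparisons are between tumors and say nothing of what Chd7 loss does. Nothing used here says whether the tumors came from separate litters, so p-values rest only on spread within these samples. Signals are given on the log2 scale, on which a difference of 1 is 2-fold. Signals under 5.12, or 34.8 on the linear scale, were treated as at the floor.

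The arrays were alike in the share of probe sets over the floor (59.1% to 61.3%) and in the Gapdh 3'/5' ratio, a sign of RNA quality (0.686 to 0.757). Atoh1, a transcription factor of cerebellar granule cell progenitors, read between 9.92 and 10.90, and Zic1, a zinc finger factor of the same lineage, between 11.58 and 11.80 at its brighter probe set. Tumor 1 stood apart from the rest: 110 of 8498 genes tested passed in it and 0 in each other tumor, in contrasts that kept tumor 1 among the other 3. Without tumor 1, 29 genes passed in tumor 2, 7 in tumor 4 and 47 in tumor 5. All 11 measured genes of mature neurons were highest in tumor 1, as were 7 of 10 oligodendrocyte genes and 23.5% of all genes tested. The other 3 oligodendrocyte genes, Olig1, Olig2 and Sox10, were lowest in tumor 1. Of 10 astrocyte genes, 5 were highest and 2, Gfap and Sox9, lowest in tumor 1. Genes that passed there were Calb1, Gad1, Car8, Pcp4, Syt1, Chn2 and Snap25 of neurons, Mbp, Cldn11 and Ugt8a of oligodendrocytes, and Gdf10 and Gjb6 of astrocytes. Calb1, Gad1, Pcp4, Syt1, Chn2, Cldn11 and Gdf10 met the filter on the mean signal only through tumor 1, so the counts that passed are no support by themselves. The summed linear signal of the 11 measured neuron genes was 7658 in tumor 1 and between 1407 and 1851 in the others, and that of the 10 oligodendrocyte genes 6651 against 2458 to 3406. The part of these neuron and oligodendrocyte signals in the levels below was not tested. In a bulk sample, fewer cells of a type and less RNA per cell cannot be told apart.

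CSF1R, the receptor for the growth factors CSF1 and IL-34, keeps microglia and macrophages alive. TREM2 senses lipids and debris at their surface and signals through the adaptor TYROBP, also called DAP12, while C1q made by these cells starts the classical complement cascade. PU.1, the ETS transcription factor encoded by Spi1, drives many genes of this lineage. It binds DNA around a GGAA core.

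The promoters below are shown because Lyz2, Ptprc and C1qb shared an order of the tumors at the brightest probe set, described further on, while Cx3cr1 did not. RefSeq promoters on the GRCm38.p6 build were found for 7 of the 10 genes, but not for Tyrobp, which shared that order too. Each line gives the 250 bases before the annotated start, 5′ to 3′ in the direction of the gene. Capitals mark CAGGAAGT, an 8-letter word with the ETS core, searched on both strands. It stands here as its reverse complement, ACTTCCTG.
Lyz2 promoter, chr10:117282273-117282522, minus strand: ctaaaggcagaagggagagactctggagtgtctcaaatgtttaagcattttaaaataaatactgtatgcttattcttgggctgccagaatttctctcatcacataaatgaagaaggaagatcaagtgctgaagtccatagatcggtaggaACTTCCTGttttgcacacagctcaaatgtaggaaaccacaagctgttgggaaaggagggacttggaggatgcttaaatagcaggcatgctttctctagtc
Ptprc promoter, chr1:138175306-138175555, minus strand: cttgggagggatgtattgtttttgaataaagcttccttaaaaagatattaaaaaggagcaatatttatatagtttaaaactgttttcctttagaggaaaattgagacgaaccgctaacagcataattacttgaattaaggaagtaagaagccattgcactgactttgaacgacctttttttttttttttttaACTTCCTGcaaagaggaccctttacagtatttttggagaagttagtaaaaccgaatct
C1qb promoter, chr4:136886201-136886450, minus strand: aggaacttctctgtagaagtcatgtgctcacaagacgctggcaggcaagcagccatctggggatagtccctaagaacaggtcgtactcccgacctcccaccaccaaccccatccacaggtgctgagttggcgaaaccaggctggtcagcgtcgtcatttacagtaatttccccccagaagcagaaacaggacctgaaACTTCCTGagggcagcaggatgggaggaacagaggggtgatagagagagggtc
Cx3cr1 promoter, chr9:120068297-120068546, minus strand: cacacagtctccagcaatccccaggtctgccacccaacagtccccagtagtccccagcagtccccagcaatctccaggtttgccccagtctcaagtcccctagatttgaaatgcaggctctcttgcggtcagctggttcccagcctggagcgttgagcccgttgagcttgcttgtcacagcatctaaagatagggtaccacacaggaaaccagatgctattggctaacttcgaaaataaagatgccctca
The word was chosen after the sequences and the matches of 9 other words had been seen. It occurred in promoters of 3 of the 7 genes, Lyz2, Ptprc and C1qb, and in none of those of Cx3cr1, Ly86, Aif1 and Trem2. Among all genes of the promoter table, 3.13% held it in a window of the same length. The matches began 100, 58 and 53 bases before the start of Lyz2, Ptprc and C1qb. Ptprc has a second annotated promoter, and the same site lies 237 bases before that start. Of the other words, also searched on both strands, GGAAGT, which lies within CAGGAAGT, occurred in the same 3 genes (22.2% of all genes), GAGGAA in Aif1, C1qb, Ptprc and Trem2 (25.9%) and TATAAA in Ptprc (14.3%). GAGGAAGT (2.79% of all genes), TTGCGCAA (0.185%), TTGCNNAA (10.8%), TTNNGCAA (10.8%), TGAGTCA (5.16%) and CACGTG (6.86%) occurred in none of the 7. A match describes the letters and is not a site of binding. The genes shown were picked by their tumor order and the word after the sequences were seen, so no link between word and order can be read.

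The 10 genes were read in every tumor, and 9 of them lay above the floor in all 4. At the brightest probe set, 9 of the 10 were highest in tumor 4, where 19.1% of all 8498 genes tested were highest, and 6 were lowest in tumor 1, where 31.4% of all genes were lowest. Both held for 6 of the 10 and for 9.24% of all genes, and 3 of the 10 were lowest in tumor 5, as were 22.1% of all genes. Of those 6, Trem2 and C1qb read only 0.017 and 0.040 lower in tumor 1 than in the next lowest tumor. With the mean over probe sets, 5 of the 10 were lowest in tumor 1. Cx3cr1 was the exception for tumor 4. Their median range from the lowest to the highest tumor was 0.72, against 0.38 over all genes tested. Only Lyz2 and Ptprc spanned 2-fold or more, as did 5.15% of all genes.

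**Figure D1:**
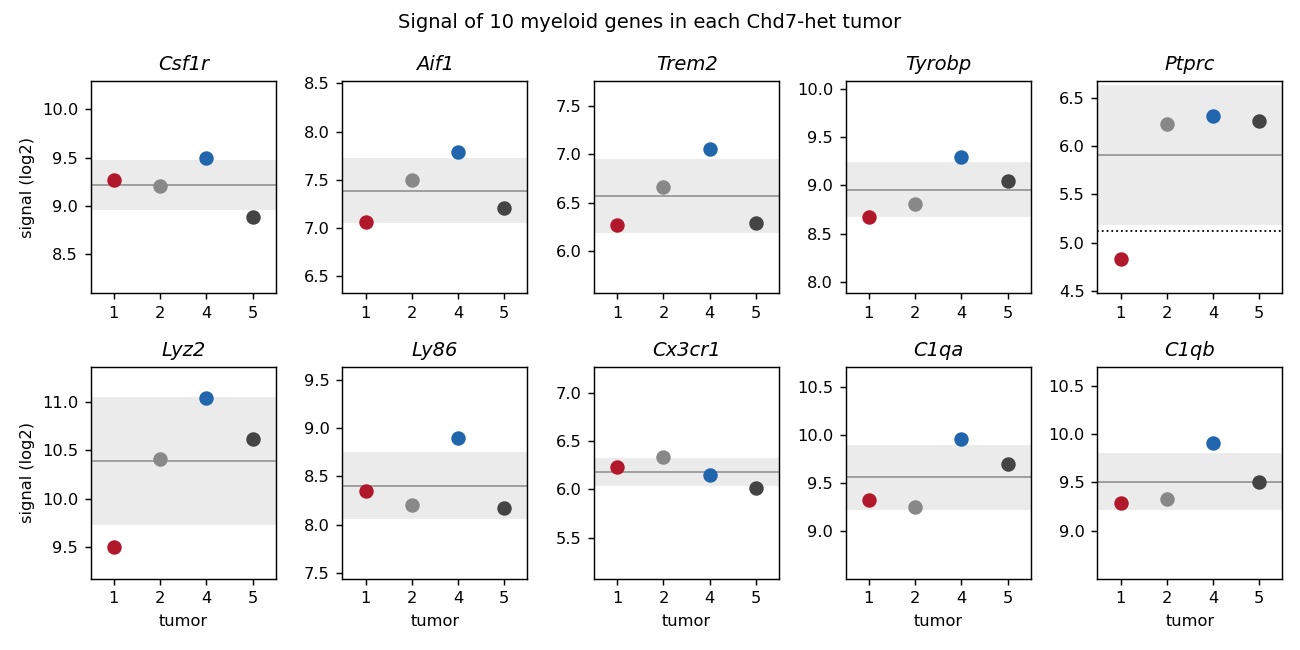
The log2 signal of each of the 10 genes at its brightest probe set (vertical axis, the same span in every panel) in tumors 1, 2, 4 and 5 (horizontal axis). The grey line and band give the mean and SD over the 4 tumors, and the dotted line for Ptprc is the floor at 5.12. Tumor 4 is highest in every panel except that of Cx3cr1, and tumor 1 lies far below the rest for Lyz2 and Ptprc.

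Among the receptors, Csf1r was highest in tumor 4 and lowest in tumor 5. Its brightest probe set, 1419872_at, read 9.27, 9.20, 9.50 and 8.89 in tumors 1, 2, 4 and 5 (mean 9.22 ± 0.25, SD, n = 4). On the linear scale this is 618, 590, 724 and 474, a 1.53-fold span. The other Csf1r probe sets ordered the tumors the same way: 1419873_s_at read 7.80, 7.62, 7.98 and 7.37, and 1423593_a_at 6.75, 6.69, 6.78 and 6.36. Tumor 1 therefore lay near the middle for Csf1r and not at the bottom.

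Cx3cr1 encodes the receptor of the neuronal chemokine fractalkine and is a marker of resident microglia. It varied least of the 10 genes: 1450020_at read 6.23, 6.33, 6.15 and 6.01 in tumors 1, 2, 4 and 5 (6.18 ± 0.14, SD, n = 4), a 1.25-fold span. Its second probe set, 1450019_at, was above the floor in tumor 4 alone, at 5.34, and read 5.10, 4.66 and 4.63 in tumors 1, 2 and 5. The probe sets thus disagreed on which tumor was highest, and only the brighter one entered the tests. The ligand gene Cx3cl1 lay below the floor in all 4 tumors, between 3.57 and 4.52.

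Trem2 read 6.27, 6.66, 7.05 and 6.29 in tumors 1, 2, 4 and 5 (6.57 ± 0.37, SD, n = 4). Tumors 1 and 5 were level and tumor 4 was highest, 1.72-fold above tumor 1. Its adaptor gene Tyrobp read 8.67, 8.81, 9.29 and 9.05 (8.95 ± 0.27, SD, n = 4), a 1.54-fold span with tumor 4 highest and tumor 1 lowest. Both were highest in the same tumor, but tumor 5 was second for Tyrobp and nearly lowest for Trem2.

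Ptprc encodes CD45, the phosphatase on the surface of all nucleated blood cells, and Ly86 encodes MD-1, the partner of the Toll-like receptor homologue RP105. Ptprc read 4.83, 6.22, 6.32 and 6.26 in tumors 1, 2, 4 and 5, or 28.5, 74.8, 79.7 and 76.8 on the linear scale. Tumors 2, 4 and 5 lay within 0.092 of each other, and tumor 1 was below the floor. Ly86 read 8.34, 8.20, 8.90 and 8.17 (8.40 ± 0.34, SD, n = 4): tumor 4 stood above the other 3, which lay within 0.17 of each other. Tumor 1 was therefore lowest for Ptprc and second for Ly86.

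Lyz2, the macrophage lysozyme, had the widest range of the 10 genes. It read 9.49, 10.41, 11.04 and 10.62 in tumors 1, 2, 4 and 5 (10.39 ± 0.65, SD, n = 4), or 721, 1359, 2108 and 1570 on the linear scale. Tumor 4 was 2.92-fold above tumor 1, and tumor 1 was 0.91 below the next lowest. Lyz1, its near-identical neighbour on chromosome 10, can share hybridisation with it. Its probe sets 1436996_x_at, at 10.24, 11.08, 11.57 and 11.24, and 1439426_x_at, at 10.11, 10.95, 11.40 and 11.06, are of a type that can bind related transcripts and kept the order of Lyz2, while its 1450822_at lay between 2.00 and 2.61. How much each gene adds to these signals was not tested.

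Aif1 encodes IBA1, the calcium-binding protein used to stain microglia. It read 7.06, 7.49, 7.79 and 7.21 in tumors 1, 2, 4 and 5 (7.39 ± 0.32, SD, n = 4). As for Trem2, tumor 4 was highest, tumor 2 second and tumor 1 lowest.

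C1qa and C1qb encode chains of the C1q complex and lie on chromosome 4 with C1qc between them. C1qa read 9.33, 9.26, 9.96 and 9.70 in tumors 1, 2, 4 and 5 (9.56 ± 0.33, SD, n = 4), and C1qb 9.29, 9.33, 9.91 and 9.51 at 1417063_at (9.51 ± 0.28, SD, n = 4). C1qc, the third chain, read 8.67, 8.94, 9.44 and 8.94. Tumor 4 was highest for all 3 chains. The other C1qb probe sets, 1437726_x_at (8.71, 8.81, 9.12 and 8.56) and 1434366_x_at (7.88, 7.91, 8.26 and 7.80), kept tumor 4 on top but put tumor 5 last, where 1417063_at put it second.

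**Figure D2:**
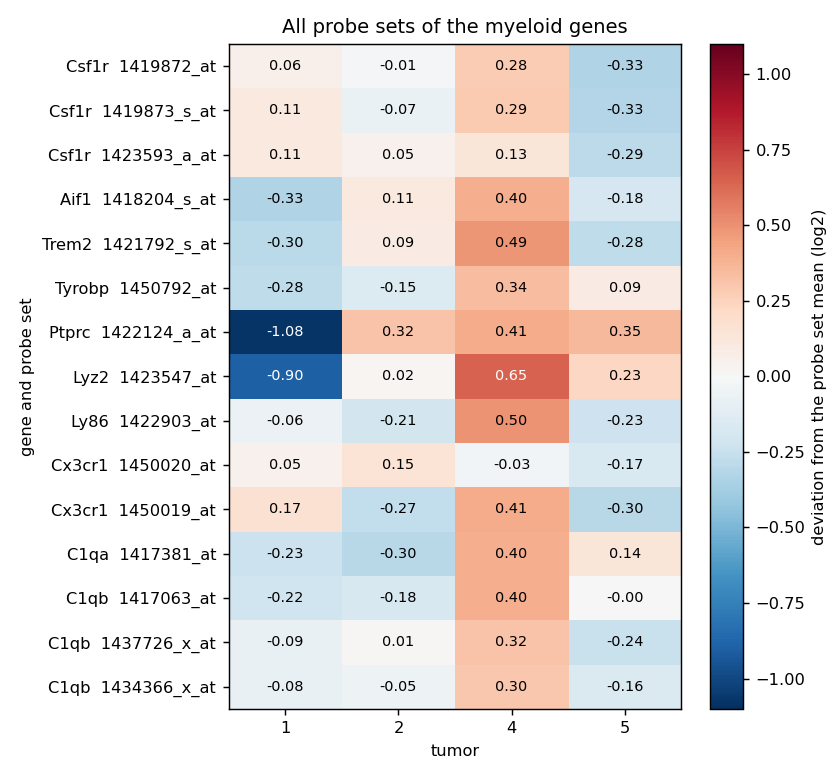
Deviation of the log2 signal from the probe set's mean over the 4 tumors (colour and printed value) for all 15 probe sets (rows) in tumors 1, 2, 4 and 5 (columns). Tumor 4 is highest in 14 of the 15 probe sets, which cover 10 genes and are not independent. The deepest values are those of Ptprc (-1.08) and Lyz2 (-0.90) in tumor 1.

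The covariation of the genes over the tumors was then described by their order, since 4 tumors are too few for a correlation. In 14 of 15 probe sets tumor 4 was highest. Lyz2, Ptprc, Tyrobp and C1qb ran from tumor 4 through 5 and 2 to 1, an order held by 5.94% of all genes tested. Aif1 and Trem2 ran 4, 2, 5, 1 (3.25% of genes), Csf1r and Ly86 4, 1, 2, 5 (1.21%), C1qa 4, 5, 1, 2 (4.86%) and Cx3cr1 2, 1, 4, 5 (6.78%). So at the brightest probe set all but Cx3cr1 shared tumor 4 at the top, and the genes parted over the other tumors. Several neighbouring values in these orders are close: for C1qa, C1qb and Csf1r, tumors 1 and 2 differed by at most 0.071, and for Ptprc the upper 3 were level. With 1 array per tumor, such gaps have no replicate error to set them against.

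Between pairs of tumors, all 10 genes were higher in tumor 4 than in tumor 5, by a median of 0.41 (0.053 to 0.77), whereas 46.5% of all genes tested were higher in tumor 4. Against tumor 4, 9 of 10 genes were lower in tumor 2 (median difference -0.44) and 9 of 10 in tumor 1 (median -0.63). Of all genes tested, 47.2% were higher in tumor 2 than in tumor 4, and 45.9% higher in tumor 1 than in tumor 4. Tumors 2 and 5 were not separated: 5 genes were higher in each. The summed linear signal of the 10 genes was 3654, 4382, 6400 and 4787 in tumors 1, 2, 4 and 5. Of these sums, Lyz2 alone gave 721, 1359, 2108 and 1570.

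The median deviation of the 10 genes from their own means was -0.26, 0.0032, 0.40 and -0.087 in tumors 1, 2, 4 and 5. Aif1 lay closest to this common profile, at a Euclidean distance of 0.16 over the 4 tumors, and C1qb next, at 0.20. Ptprc (0.98) and Lyz2 (0.75) lay farthest, with their largest departures from it in tumor 1. Cx3cr1, at 0.56, was flat in tumor 4, and Csf1r, at 0.41, was not low in tumor 1. The median distance from this profile over 8395 genes outside every list was 0.55, and 38 of them lay within 0.2. Ptprc, Lyz2 and Cx3cr1 were thus no closer to it than that median, although the profile was made from the 10 genes themselves.

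In limma fits over 8498 genes, each tumor was contrasted with the mean of the other 3, on the assumption that the lone tumor varies as they do. The lone tumor adds nothing to the error, which came from the spread of the other 3, pooled in part over genes. The 4 contrasts share their tumors. To pass, a gene needed 2-fold or more and an adjusted p (Benjamini-Hochberg over all genes) under 0.05. All 10 genes passed the filter on the mean signal, set at 5.87, Ptprc narrowly with a mean of 5.91. In tumor 1, 1 of the 10 passed, as a lower gene, where 0.247% of all genes passed as lower, 1.05% as higher and 1.29% in either direction. At an unadjusted p under 0.05 there were 2, Ptprc and Lyz2, against 11.2% of all genes. That gene was Ptprc, at least 2.22-fold lower (log2 difference -1.15 with tumor 1 raised to the floor, SE 0.21, adjusted p = 0.0429). Over the 7 alternative settings in which it was tested, its adjusted p lay between 0.0187 and 0.389. It did not pass in 3 of them: quantile normalization (0.0648), a floor at the 50th percentile (0.389, log2 difference -0.40) and the mean over probe sets (0.0545). Without tumor 2, 4 or 5, Ptprc was under the filter and was not tested.

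Lyz2 was 2.29-fold lower in tumor 1 (log2 difference -1.19, SE 0.25) and missed the threshold (adjusted p = 0.0560). It passed without tumor 2 (adjusted p = 0.00373), without tumor 4 (0.0424), without tumor 5 (0.0109) and after quantile normalization (0.0456). Lyz2 did not pass with another floor or filter or with the mean over probe sets. Nor did it pass without _x_at and _s_at probe sets or without the intensity trend, and its log2 difference was -1.19 in all of these. The other 8 genes differed in tumor 1 by between -0.44 (Aif1) and 0.074 (Csf1r). In all, 8 of 10 were below the mean of the other 3, as were 56.3% of all genes, with a median of -0.34 against -0.036 over all genes. Without tumor 4 that median was -0.15.

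In tumor 4, 0 of the 10 genes passed in limma, as did 0 of all 8498 genes (0.0%). At an unadjusted p under 0.05 there were 3 of 10, C1qb, Ly86 and Trem2, against 47 of all genes (0.553%). In tumor 4, 9 of 10 genes lay above the mean of the other 3, as did 50.8% of all genes, with a median difference of 0.53 against 0.0037 over all genes. Lyz2 differed by 0.87 (SE 0.41), Ly86 by 0.66 (SE 0.19) and Trem2 by 0.65 (SE 0.27), each with an adjusted p of 1.00 in limma. Without tumor 1 the difference of Lyz2 was 0.53 and the median of the 10 genes 0.47.

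In tumors 2 and 5, 0 of the 10 genes passed in limma, with 0 at an unadjusted p under 0.05, against 5.84% of all genes in tumor 2 and 3.6% in tumor 5. In tumor 2, 5 of the 10 lay above the mean of the other 3 (47.2% of all genes), and in tumor 5, 6 lay below it (43.1%). The median differences were 0.0043 in tumor 2 and -0.12 in tumor 5, and neither kept its sign. With the filter at the 75th percentile, which left 6 genes, they were -0.22 and 0.061, and without _x_at and _s_at probe sets, which left 8, they were -0.11 and 0.061. Csf1r was the gene farthest from the rest in tumor 5, at -0.44 (SE 0.19, adjusted p = 0.957). In tumor 2 it was C1qa, at -0.40 (SE 0.25, adjusted p = 0.795).

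Other genes of these cells were read from lists chosen with earlier results of these data known. Of 12 complement, Fc receptor and integrin genes, 11 were highest in tumor 4, but 5 lay below the floor in every tumor and 5 passed the filter, with 0 passing the test in any tumor. The 5 tested had a median difference of 0.50 in tumor 4, against 0.0037 over all genes tested. Of all genes tested, 19.1% were highest in that tumor. Fcgr2b, the inhibitory Fc receptor, read 6.90, 6.99, 7.88 and 6.82 in tumors 1, 2, 4 and 5, and its 4 probe sets were all highest in tumor 4. Fcgr1, the high-affinity receptor, read 5.27, 5.73, 6.42 and 5.48. Both spanned slightly more than 2-fold, with tumor 4 on top.

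Of 15 measured genes of lysosomes and phagocytosis, 10 were highest in tumor 4 and 9 lowest in tumor 1. Over all genes tested these shares were 19.1% and 31.4%. In tumor 4, 14 of the 14 tested lay above the mean of the other 3, by between 0.15 and 0.55. Of all genes tested, 50.8% lay above that mean in tumor 4 and 56.3% below it in tumor 1. In tumor 1, 13 of 14 lay below it, and 1 passed: Gpnmb, a glycoprotein of phagocytes, was 2.21-fold lower (log2 difference -1.15, SE 0.21, adjusted p = 0.0385 in limma). Its values were 7.87, 8.73, 9.07 and 9.24 in tumors 1, 2, 4 and 5. Ctsc, the protease cathepsin C, read 8.03, 8.58, 9.08 and 9.06, with tumor 1 lowest. Dividing cell genes, which tumor cells also express, were below the mean of the others in tumor 1 in 9 of 9 cases (median -0.41), with 0 passing: Mki67 read 9.83, 10.67, 10.28 and 9.87 and Mcm2 8.73, 9.26, 9.59 and 9.63, and the part of this shift in the levels above was not tested.

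Among 12 genes of border and blood-derived macrophages, 1 passed: Ms4a7, a tetraspan membrane protein of such macrophages, was 2.27-fold lower in tumor 1 (log2 difference -1.18, SE 0.23, adjusted p = 0.0470 in limma). It read 7.14, 8.02, 8.38 and 8.58 in tumors 1, 2, 4 and 5. Of the 12, 6 were lowest and 4 highest in tumor 1, and 5 were highest in tumor 4. Over all genes tested these shares were 31.4%, 23.5% and 19.1%. Those highest in tumor 1 were Mrc1, the mannose receptor (5.77, 5.57, 5.71 and 4.87), F13a1 (5.15, 4.57, 4.26 and 4.95), Cd163 and Lyve1. Pf4, a chemokine of platelets and border macrophages, read 5.40, 5.14, 5.55 and 5.21. Only Ms4a7 and Adgre1, which encodes F4/80, passed the filter, and Adgre1 was flat, between 6.54 and 6.65. Ms4a7 lost its call in 6 and Gpnmb in 5 of the alternative settings. Cd163, Lyve1, Ccr2 and Msr1 stayed under the floor in every tumor.

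Genes of homeostatic microglia had no common highest tumor. Of the 9 measured, 4 were highest in tumor 4, 3 in tumor 1 and 2 in tumor 2, and 6 were lowest in tumor 5. Over all genes tested these shares were 19.1%, 23.5%, 26.5% and 22.1%. P2ry12, an ADP receptor of resident microglia, read 7.19, 6.49, 6.72 and 6.23 in tumors 1, 2, 4 and 5. Gpr34, a lysophospholipid receptor, read 6.44, 5.70, 5.41 and 4.20, and both, named after their values were seen, were highest in tumor 1 and lowest in tumor 5. Siglech, also counted as highest in tumor 1, was below the floor throughout. P2ry6, Fcrls, Olfml3 and Slc2a5 were highest in tumor 4, Slc2a5 below the floor. Sall1, a transcription factor of microglia that neural progenitors also express, read 7.25, 7.68, 6.85 and 6.46, and Olfml3 6.22, 5.93, 6.86 and 5.76. None of the 4 genes tested passed in any tumor, and the difference between this list and the 10 genes was not tested.

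MHC class II genes, which antigen-presenting cells use to show peptides to T cells, were mostly lowest in tumor 1. Of the 6 measured, 5 were highest in tumor 4 and 5 lowest in tumor 1, though 0 passed the filter and so none was tested. These counts include H2-Ab1 and Ciita, which lay below the floor in every tumor. Of all genes tested, 19.1% were highest in tumor 4 and 31.4% lowest in tumor 1. H2-Aa read 4.18, 5.85, 6.89 and 6.28 in tumors 1, 2, 4 and 5, and its other 3 probe sets were also lowest in tumor 1. Cd74, the invariant chain, read 4.61, 4.88, 6.08 and 5.39. In tumor 1 none of the 6 lay above the floor, in tumor 2 only H2-Aa did, and in tumors 4 and 5 there were 4 each.

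**Figure D3:**
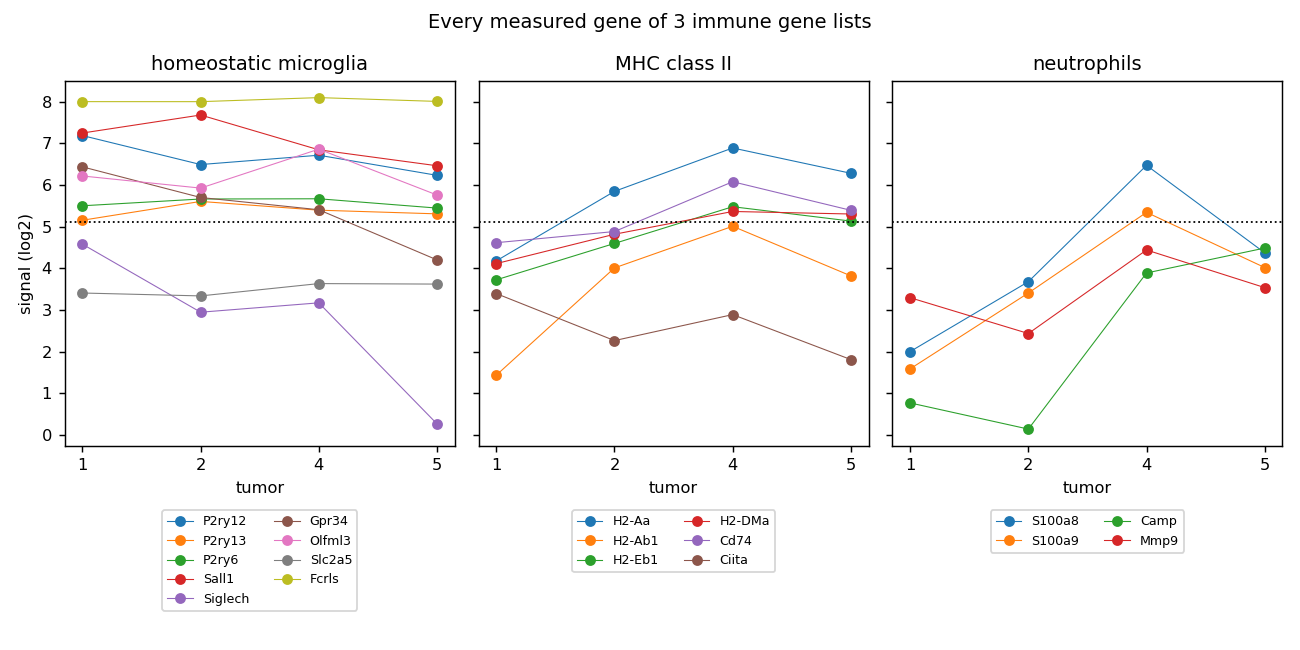
The log2 signal (vertical axis) of every measured gene of 3 lists, homeostatic microglia, MHC class II and neutrophils, in tumors 1, 2, 4 and 5 (horizontal axis). Thin lines join the values of a gene and imply no order of the tumors, and the dotted line is the floor at 5.12. Gpr34 reads 6.44 in tumor 1 and 4.20 in tumor 5, while H2-Aa is lowest in tumor 1, at 4.18, and S100a8 is above the floor in tumor 4 alone, at 6.47.

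Of the transcription factors, Spi1 never reached the floor (4.22, 4.84, 4.60 and 4.29). Irf8, which acts with PU.1, read 5.58, 5.60, 5.97 and 5.45, and Cebpb, a factor of activated macrophages and other cells, 5.85, 6.56, 6.86 and 6.90. Of 6 measured, only Cebpb passed the filter, and it did not pass the test. Cebpa, a factor of myeloid progenitors, read 5.61, 5.91, 5.78 and 6.14. In the DAP12 and ITAM signalling list, Clec7a, the receptor dectin-1, read 5.56, 6.65, 7.14 and 6.73 and narrowly missed the threshold in tumor 1 (log2 difference -1.27, SE 0.25, adjusted p = 0.0503 in limma). Cd300a, an inhibitory receptor, read 5.22, 5.50, 5.75 and 5.80. Ptpn6, a phosphatase that dampens ITAM signals, read 4.66, 5.24, 5.92 and 5.20, and Syk and Vav1 lay below the floor throughout. Tumor 1 was lowest in 5 of the 8 measured genes of that list and tumor 4 highest in 4. Over all genes tested these shares were 31.4% and 19.1%.

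Among the ligands, Csf1, the growth factor of CSF1R, read 5.73, 5.73, 5.97 and 5.74 in tumors 1, 2, 4 and 5, and Il34 lay below the floor throughout, between 3.82 and 4.55. Gas6, a ligand of the phagocytic receptors Axl and Mertk, read 7.17, 6.80, 7.45 and 7.03. Cd200, a neuronal protein that restrains microglia, was highest in tumor 1 (7.40, 6.42, 6.74 and 6.67). Ccl2, a chemokine that draws monocytes, lay below the floor in tumors 1 and 2 (4.36 and 4.96) and above it in tumors 4 and 5 (5.51 and 6.07). Of 7 measured chemokines and cytokines of myeloid cells, 6 were highest in tumor 4 (19.1% of all genes tested), and 5 never reached the floor. Ccl12, another monocyte chemokine, read 4.29, 4.32, 5.80 and 4.08. No ligand passed in any tumor, and no chemokine or cytokine of that list passed the filter.

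**Figure D4:**
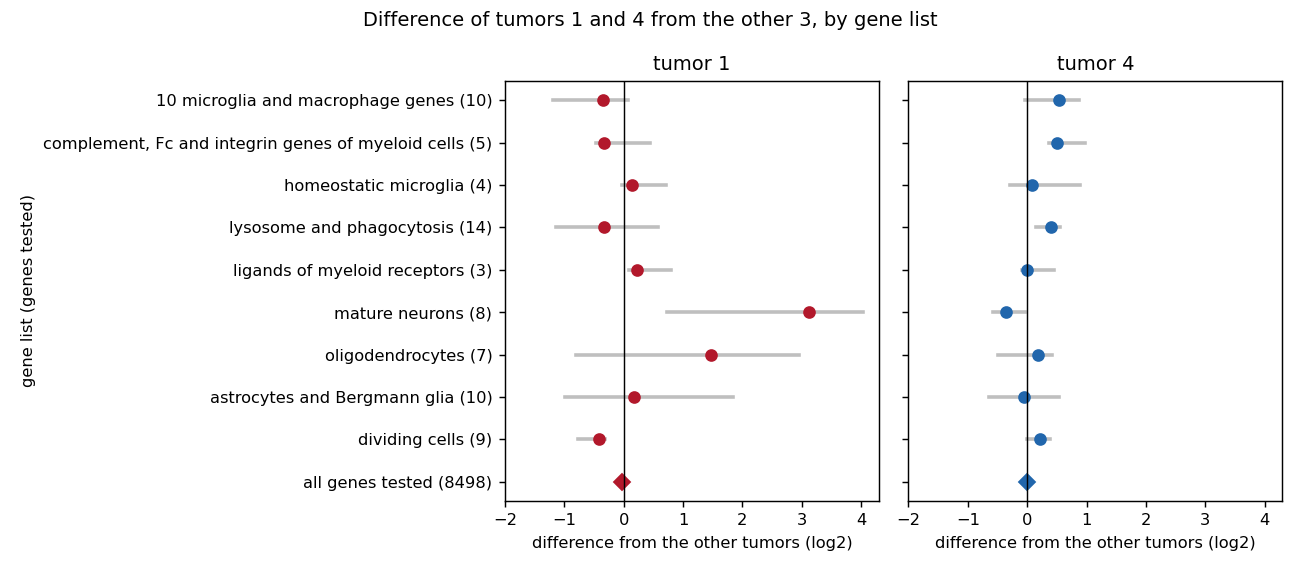
Difference of tumor 1 (left) and tumor 4 (right) from the mean of the other 3 on the log2 scale (horizontal axis) for lists with 3 or more genes tested (vertical axis, number of genes in brackets). Points are medians over the genes, grey bars run from the lowest to the highest gene, and the diamond is the median of all 8498 genes. The 10 genes lie at -0.34 in tumor 1 and 0.53 in tumor 4, and mature neuron genes at 3.12 in tumor 1, where 5 of the 8 met the filter only through that tumor.

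Markers of other blood cells were then read in the same tumors. Of the 11 neutrophil genes listed, 4 were measured: S100a8 read 2.00, 3.68, 6.47 and 4.37 and S100a9 1.58, 3.41, 5.34 and 4.02 in tumors 1, 2, 4 and 5, above the floor in tumor 4 alone. Camp, at most 4.49, and Mmp9, at most 4.44, lay below the floor throughout. The summed linear signal of these 4 genes was 18.5, 29.9, 166 and 70.9. Neutrophils also express Ptprc and Lyz2, and the part of neutrophils in the levels of these 2 genes was not tested. S100a8 and S100a9 had the tumor order of Ptprc, Lyz2, Tyrobp and C1qb, which 5.94% of all genes tested held. Camp and Mmp9 were lowest in tumor 2. All 4 neutrophil genes lay below the floor in tumors 1, 2 and 5, where their order is uncertain. The 3 measured of 11 T and NK cell genes (Cd247, Cd8a and Gzma) lay below the floor in every tumor, with a summed signal between 13.4 and 15.7. Of 7 B cell genes 2 were measured, and Cd79b lay below the floor. Ighm, the immunoglobulin heavy chain, was highest in tumor 4 in 5 of its 6 probe sets and above the floor in 4, in that tumor alone. Its brightest by mean read 4.80, 4.89, 5.42 and 5.09 in tumors 1, 2, 4 and 5, another 4.66, 4.06, 7.03 and 3.35, and a further set 1.89, 2.04, 6.84 and 3.07. So an antibody gene was high in the tumor where 9 of the 10 genes were highest, and its part in their levels was not tested. Of 8 endothelial genes 6 lay below the floor in every tumor. With these counted, 6 of the 8 were lowest and 0 highest in tumor 4 (17.3% and 19.1% of all genes tested). The 2 above the floor in all tumors, Cldn5 (7.19, 6.93, 6.50 and 6.92) and Esam (6.20, 5.96, 6.12 and 6.33), encode junction proteins. Of these, only Cldn5 was lowest in tumor 4.

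The genes outside every list whose deviations came closest to the common profile of the 10 genes were taken from 8395 genes above the floor in all tumors. By Euclidean distance over the 4 tumors these were Tmem86a (0.066), S100a10 (0.071), Rpusd1 (0.074), Golt1b (0.084), Cnn2 (0.10), H2-D1 (0.11), Syngr1 (0.11) and Mif (0.12). The median distance of all 8395 genes was 0.55. H2-D1, an MHC class I heavy chain, read 9.49, 9.83, 10.30 and 9.74 in tumors 1, 2, 4 and 5, and Mif, a cytokine made by many cell types, 10.48, 10.68, 11.00 and 10.64. With only 4 tumors, likeness of this kind describes the arrays and nothing more.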

How the data were processed

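Total RNA of 4 Chd7-het tumors was measured on 1 array each. The table deposited by the authors holds log2 signals. MAS5 is named in the submitters' processing notes, without version or scaling target. It corrects background within each array and does not align distributions. Low signals are noisy. On the linear scale 100% of values fell on steps of 0.1, to within 0.0001. Of 29304 probe sets, 61 controls were left out, 24679 have a single gene symbol in the platform annotation, 647 several and 3917 none. Of the first, 24601 were found in the RefSeq gene table.

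Signals were raised to a floor (the median over arrays of the 40th percentile, 5.12). Probe sets whose deposited mean reached the median of means (5.87) were kept, and the brightest stood for its gene. limma 3.58.1 in R 4.3.3 (lmFit, eBayes with an intensity trend) was used and tested on simulated data. Orders and levels are without the floor. Alternatives were quantile normalization, other floors and filters, the mean over probe sets, no _x_at or _s_at probe sets, no trend, and leaving out each tumor.

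The 10 genes and all lists were chosen with earlier results of these data known. Further named genes were those that passed, the 2 per list with the largest range where every tumor exceeded the floor, and the 8 closest in profile. Any other gene was named after its values were seen. The 8 listed red blood cell genes had no probe set of their own. Of 10 astrocyte genes, 7 lay above the mean of the others in tumor 1 and 2 passed.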

Additional observations from a re-analysis of the deposited data

Results flagged for a closer look

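Of 54 sets of 4 tumor values that were checked, 4 had a tumor whose gap to the nearest other was large against the whole range (Dixon's test). In sets drawn blind, chance gives about 1 in 20. These were not drawn blind, since many genes were included for passing in tumor 1 or for the largest range of their list, so that rate is no reference here. For Ptprc the tumor was number 1, at 4.83, with the other tumors from 6.22 to 6.32. For Fcgr2b it was tumor 4, at 7.88, with the rest from 6.82 to 6.99. For Snap25, a synaptic vesicle fusion gene, it was tumor 1, at 11.03, with the rest from 9.16 to 9.25. For Gdf10, a marker of Bergmann glia, it was tumor 1, at 7.46, with the rest from 5.51 to 5.77.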

How the results depend on the processing

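No paired analysis was possible because the 4 tumors form a single group. Of the single-gene values under the alternatives, 201 kept direction and call, 4 gained the call, 14 lost it and 6 turned sign, and the cause was not tested. Those that turned were all near 0. With a tumor left out, Csf1r in tumor 1 ran from -0.081 (without tumor 5) to 0.22, Cx3cr1 in tumor 1 from -0.013 (without tumor 5) to 0.15, Cx3cr1 in tumor 4 from -0.13 to 0.033 (without tumor 2) and Ly86 in tumor 1 from -0.21 to 0.16 (without tumor 4). After quantile normalization Cx3cr1 differed by -0.023 in tumor 1 and 0.026 in tumor 4. The 4 gains were Lyz2 in tumor 1, given above. The number of the 10 genes passing in tumor 1 was 0 with the floor at the 50th percentile, 0 with the filter at the 75th percentile (6 genes left) and 0 with the mean over probe sets. It was 1 without each other tumor, then Lyz2 in place of Ptprc. Genes passing among all tested in tumor 1 (110) numbered 57 with the higher floor, 29 with the stricter filter and 177 to 208 with a tumor left out. The highest counts in the other tumors came without tumor 1. In tumor 2 (0) they numbered 1 with no filter, 1 with the stricter filter and 0 to 29 with a tumor left out. In tumor 4 (0) they numbered 5 with no filter and 1 to 7 with a tumor left out, and in tumor 5 (0) 6 and 1 to 47. The 10 genes lowest in tumor 1 numbered 3 of 6 under the stricter filter and 5 with the mean over probe sets. They numbered 4 of 8 without _x_at and _s_at probe sets and 5 to 6 with a tumor left out. Those highest in tumor 4 numbered 8 to 9 with a tumor left out. The median difference of the 10 genes then ran from -0.42 to -0.15 in tumor 1 and -0.20 to 0.12 in tumor 2. In tumor 4 it ran from 0.47 to 0.59 and in tumor 5 from -0.18 to -0.069. Signals near the floor, as for Ptprc, MHC class II and neutrophil genes, limit what 4 arrays can resolve.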
